A study of Mus musculus with 16 samples.

Results

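The 8 genes described here encode the transcription factor SREBP2, proteins that set its activity, and proteins that act on lipoprotein uptake or move cholesterol inside the cell. They are Srebf2, Scap, Insig1, Insig2, Mylip, Stard4, Lrp1 and Npc1. They were taken by symbol from the gene tables of the series, where each matched 1 of 78317 listed genes, and all 8 were among the 14781 genes left after a filter on low counts. RNA was measured in whole liver of wild-type C57BL/6J mice, an inbred laboratory strain, that arrived aged 6 weeks and then ate 1 of 2 diets for 10 weeks. The groups were females and males on a normal LabDiet chow that gave 4.5% of its calories as fat and females and males on a high fat feed, D12492 of Research Diets, that gave 60% as fat, with 4 libraries in each. The chows came from different makers, so fat is not the only thing in which they can differ, and the mice were housed in groups. No genotype, agent or transgene other than wild type is given for any group. The labels state lights on at 07:00 but not the hour at which livers were collected. Where 4 libraries are called replicates, the labels number them without naming animals, so p-values measure the spread between these libraries.

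SREBP2 is made as a membrane protein of the endoplasmic reticulum, where it is bound to SCAP, its escort and sterol sensor. When membrane cholesterol is low, SCAP carries SREBP2 to the Golgi apparatus, proteases release its N-terminal part, and this enters the nucleus and raises transcription of the genes of cholesterol synthesis and of LDL uptake, its own gene among them. When sterols are plentiful, the INSIG proteins hold SCAP in the endoplasmic reticulum. Insig1 is itself a target of SREBPs, whereas Insig2 is known in liver for a separate promoter whose transcript falls with insulin. LDL particles taken up by receptors release cholesterol in lysosomes, and hepatocytes are the main site of this uptake in the body.

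The question for each gene was whether its RNA differed with diet in females, with diet in males, and between those changes. A gene was called where the p-value from the quasi-likelihood test of edgeR, with Benjamini-Hochberg adjustment across the 14781 genes, was under 0.05. Levels are in CPM, counts relative to a library size scaled by TMM (trimmed mean of M values), and levels of different genes are compared only in TPM, which also divides by transcript length. Library totals ran from 22228115 to 41420589 expected counts. Male high fat diet replicates 2 and 3 were unusually alike: their chi-square statistic per gene was 4.07, against 20.8 to 307.9 for every other pair within a group. The labels list them as 2 samples and they were counted so. Where leaving out both changed the diet call of a gene named here, the value without them is given. Srebf1, Mbtps1 and the cell type markers were not checked in this way. The liver label was checked with 7 hepatocyte markers, which summed to between 66805 and 125240 CPM in every library.

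The start regions of Srebf2, Insig1 and Insig2 are shown first, because they belong to the transcription factor and to the 2 INSIG proteins of the same feedback loop. The windows are RefSeq's on the mouse assembly GRCm38.p6, which is older than the build of the counts, and run 5′ to 3′ on the gene's strand from 250 bases upstream of the start. Bases that the supplied GENCODE M21 annotation places in the gene's own exons were left off. The Srebf2 window is chr15:82147019-82147180 on the plus strand, the Insig1 window is chr5:28071162-28071362 on the plus strand, and 2 of the Insig2 start sites are chr1:121332590-121332839 and chr1:121328025-121328274 on the minus strand. As printed, all 4 windows lie outside the annotated exons of their gene, and the downstream Insig2 window lies 3′ of the upstream Insig2 start. Distances are counted from the RefSeq start. Of the 250 bases upstream of it, the other annotation places 88 of Srebf2 and 49 of Insig1 in exons.
Srebf2: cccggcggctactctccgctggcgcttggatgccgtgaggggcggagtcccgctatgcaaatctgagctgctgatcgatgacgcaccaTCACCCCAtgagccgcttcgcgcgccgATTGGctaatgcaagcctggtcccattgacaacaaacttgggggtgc
Insig1: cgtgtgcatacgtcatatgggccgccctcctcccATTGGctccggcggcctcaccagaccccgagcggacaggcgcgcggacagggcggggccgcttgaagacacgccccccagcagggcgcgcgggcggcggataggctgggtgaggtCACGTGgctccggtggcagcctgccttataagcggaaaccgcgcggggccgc
Insig2, upstream start: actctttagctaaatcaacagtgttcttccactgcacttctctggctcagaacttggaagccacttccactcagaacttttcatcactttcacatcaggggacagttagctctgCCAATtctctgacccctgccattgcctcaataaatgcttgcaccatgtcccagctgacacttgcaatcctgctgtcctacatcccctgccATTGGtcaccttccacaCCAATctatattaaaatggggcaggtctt
Insig2, downstream start: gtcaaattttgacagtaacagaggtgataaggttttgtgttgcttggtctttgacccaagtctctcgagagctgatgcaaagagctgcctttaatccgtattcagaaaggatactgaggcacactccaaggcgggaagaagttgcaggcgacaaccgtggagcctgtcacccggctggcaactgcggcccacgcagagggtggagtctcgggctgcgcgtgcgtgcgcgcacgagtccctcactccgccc

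Capitals mark matches on either strand to TCACNCCA, the core letters of a sterol response element, to CCAAT, which the other strand shows as ATTGG, and to the letters CACGTG, an E-box. None of these motifs overlapped another in the printed windows. The letters TCACNCCA were chosen after the windows had been seen, since a longer form had no match in any member. Srebf2 held TCACCCCA starting 162 bases upstream and ATTGG 135 bases upstream. Insig1 held ATTGG 216 bases upstream and CACGTG 101 bases upstream, and the upstream Insig2 start held 3 CCAAT matches, at 136, 46 and 29 bases. The downstream Insig2 start held no match to these 3 motifs. Over all 32851 RefSeq windows, the 250 upstream bases held TCACNCCA in 3.67%, CCAAT in 33.8% and CACGTG in 6.02%. TAGGTCA, the monomer sequence bound by REV-ERB and ROR receptors, was in 2.23% of all windows and in none of the 9 windows of the members. Of the 8 genes, 6 had a window in this table.

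In females, Insig1 and Srebf2 RNA fell on the high fat diet and the other 6 genes were not called. These 2 calls of 8 stand against 11.5% of all tested genes called in that comparison, or 5.76% called lower. In males, Insig1 fell further, Stard4 also fell and Insig2 rose, which made 3 calls of 8 against 11.4% of all genes. The diet change differed between the sexes for Insig1 and Insig2, 2 of 8 genes against 0.677% of all genes. Scap, Lrp1 and Npc1 were called in none of the 5 comparisons. The libraries of the diet groups did not overlap for 1 of the 8 genes in females and 4 in males, against 18.3% and 18.5% of all genes. The median change of the 8 genes was -0.23 in females and -0.06 in males on the log2 scale, beside 0.00 and 0.01 for all genes. Scaling mattered in females: without TMM the median over all genes was 0.19, and on log2(TPM + 1) it was 0.17, so small changes in females are to be read against that shift.

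**Figure D1:**
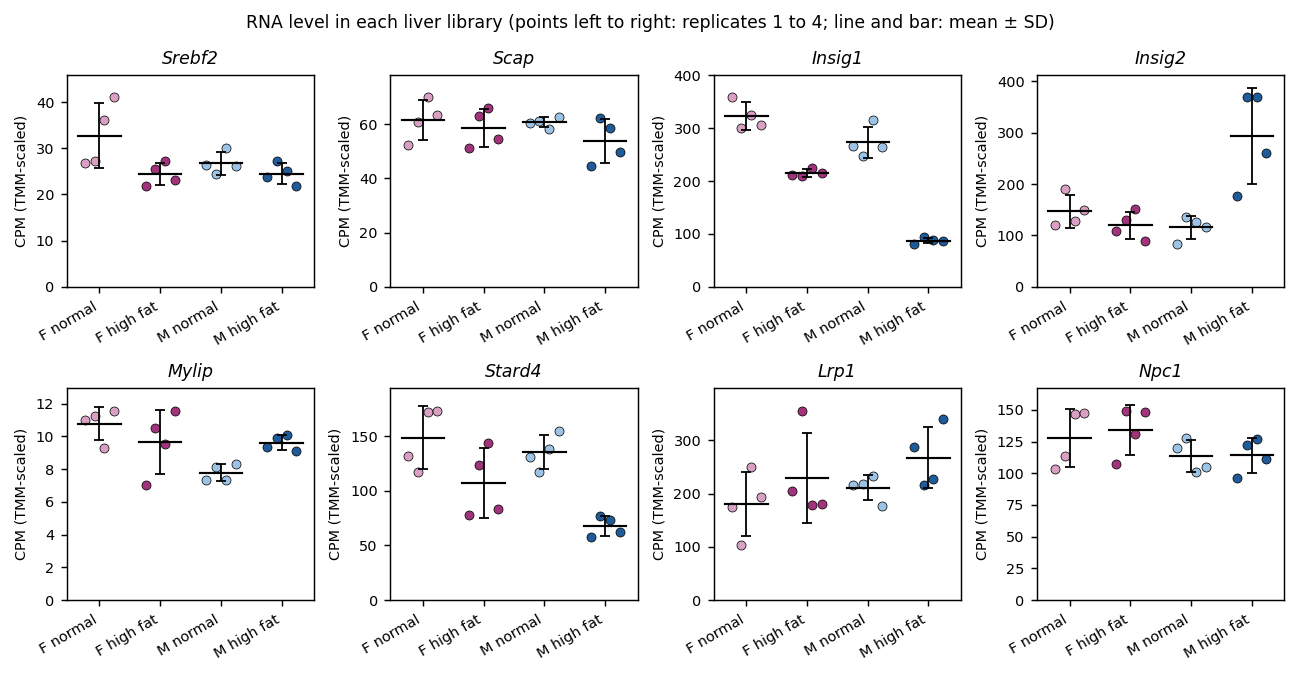
RNA level of each of the 8 genes in every library, in CPM on a TMM-scaled library size (vertical axes, starting at 0), by group (F, females; M, males); points are replicates 1 to 4 from left to right, the long line is the mean and the bar the SD of 4 libraries. Insig1 is lowest in all 4 libraries of males on the high fat diet, between 81.0 and 93.4 CPM, where Insig2 reaches 369 CPM.

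Among the regulators of SREBP2, the INSIG genes moved most. Insig1 (ENSMUSG00000045294.12) encodes the sterol-dependent retention protein that is itself induced by SREBPs. In females on the normal diet its 4 libraries held 359, 301, 325 and 307 CPM, and on the high fat diet 211, 210.4, 225 and 215 CPM. In males they held 267, 247, 315 and 265 CPM on the normal diet and 81.0, 93.4, 88.0 and 85.8 CPM on the high fat diet. The diet groups did not overlap in either sex, and the males on the high fat diet lay far below every other library of the study.

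In females Insig1 changed by -0.58 ± 0.10 (SE) on the log2 scale (adjusted p = 0.00119 by edgeR). In males it was -1.65 ± 0.10 (adjusted p = 1.71e-08 by edgeR), or 3.14-fold lower. The female change was smaller, at -0.33, on log2(TPM + 1) without a filter, where it was not called (adjusted p = 0.0514 by limma). It kept its call in 26 of 27 alternatives. The female change minus the male change was 1.07 ± 0.14 (adjusted p = 0.0011 by edgeR), so the 2 falls differed in size. On the high fat diet females had 1.31 ± 0.10 more Insig1 than males on the log2 scale (adjusted p = 9.23e-08 by edgeR), with no overlap between the sexes. On the normal diet the female excess was 0.24 ± 0.10 (adjusted p = 0.106), and the ranges overlapped. By mean level the groups stood in the order females normal, males normal, females high fat and males high fat, and each neighbour differed by more than the larger SD of the pair.

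Insig2 (ENSMUSG00000003721.15) encodes the other INSIG protein, which holds SCAP in the same way but is not a sterol-induced gene in liver. Females held 120, 191, 127 and 149 CPM on the normal diet and 108, 131, 151 and 89.6 CPM on the high fat diet. Males held 82.7, 137, 126 and 116 CPM on the normal diet and 177, 369, 369 and 260 CPM on the high fat diet. The male diet groups did not overlap, the female ones did, and the 2 highest values belonged to the 2 libraries that were so alike. Only replicate 1 of the males on the high fat diet fell inside the range of any other group.

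The rise of Insig2 in males was 1.35 ± 0.23 on the log2 scale (adjusted p = 0.0015 by edgeR), or 2.54-fold. In females the change was -0.29 ± 0.23 (adjusted p = 0.438), with a 95% interval of -0.78 to 0.19. The difference of the 2 changes was -1.64 ± 0.33 (adjusted p = 0.0251 by edgeR), of opposite sign to that of Insig1. With male high fat diet replicates 2 and 3 both left out, the male rise was 0.92 ± 0.23 (adjusted p = 0.0258), while the difference between the sexes, -1.21 ± 0.31, was no longer called (adjusted p = 0.0913). That difference was also lost when any 1 of 6 libraries was removed: female normal diet replicate 2 or 4, male normal diet replicate 4, female high fat diet replicate 1 or male high fat diet replicate 2 or 3. On the high fat diet Insig2 was 1.29 lower in females than in males, at -1.29 ± 0.23 on the log2 scale (adjusted p = 0.00135 by edgeR), and -0.87 ± 0.23 without those 2 libraries (adjusted p = 0.0191). The counts are per gene, so they do not separate transcripts from the 2 Insig2 start sites shown above.

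**Figure D2:**
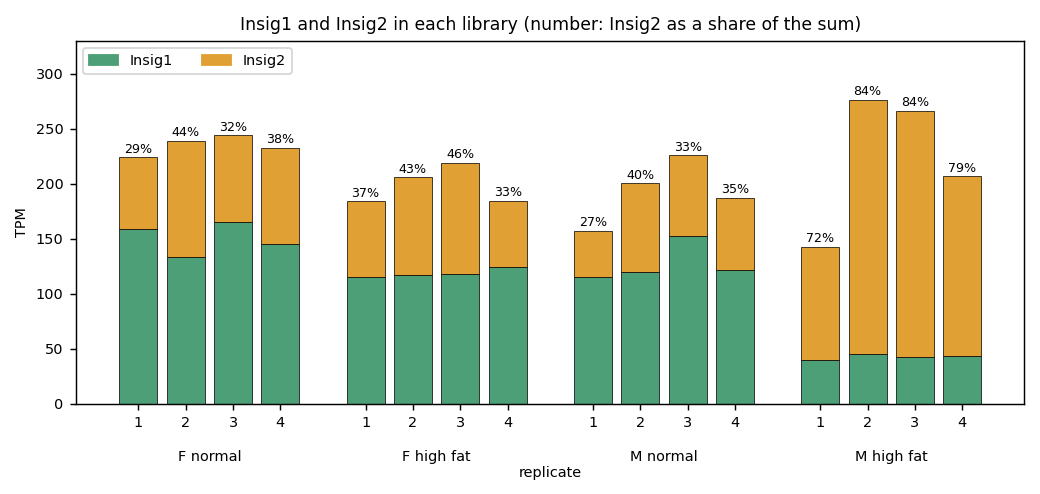
Insig1 and Insig2 RNA in each library as stacked bars, in TPM (vertical axis, starting at 0), with the libraries in the order of group and replicate and the share of Insig2 in the sum printed above each bar (F, females; M, males). The share is between 72% and 84% in the 4 males on the high fat diet and at most 46% in the 12 other libraries.

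Set beside each other in TPM, the INSIG genes changed places in males. Insig2 made up 33.7% ± 5.74 (SD, n = 4) of the summed Insig1 and Insig2 TPM in males on the normal diet, with a range of 26.6% to 40.4%. On the high fat diet it made up 79.7% ± 5.51, with a range of 72.2% to 84.1%, so the groups were far apart. In females the shares were 35.8% ± 6.74 on the normal diet and 39.7% ± 5.94 on the high fat diet, and overlapped. The sum itself was 193 ± 28.7 TPM in males on the normal diet and 223 ± 61.8 TPM on the high fat diet, with overlapping ranges. Without male high fat diet replicates 2 and 3 the male difference in the sum turned from 30.3 to -18.0 TPM, whereas that in the share was 42.0 percentage points instead of 46.1. In females the sum was 235 ± 8.70 TPM on the normal diet and 198 ± 17.1 TPM on the high fat diet, and did not overlap.

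Srebf2 (ENSMUSG00000022463.9), the gene of the transcription factor itself, held 26.7, 27.2, 36.0 and 41.1 CPM in females on the normal diet and 21.9, 25.5, 27.3 and 23.1 CPM in females on the high fat diet. Males held 26.4, 24.3, 30.1 and 26.1 CPM on the normal diet and 23.8, 27.2, 25.1 and 21.9 CPM on the high fat diet. Female normal diet replicates 3 and 4 stood above all other libraries, and the remaining groups lay on top of each other. The female change of -0.42 ± 0.13 on the log2 scale was just past the threshold (adjusted p = 0.0448 by edgeR). With 1 library left out at a time, 12 of 16 fits lost the call (it held only without female replicate 1 or 2 or male replicate 3 of the normal diet, or female replicate 3 of the high fat diet), and it was -0.28 with an adjusted p of 0.187 without female normal diet replicate 4. Without male high fat diet replicates 2 and 3, which share the estimate of spread, it was -0.42 (adjusted p = 0.0515 by edgeR). On log2(TPM + 1) it was -0.14 and not called. In males the change was -0.12 ± 0.13 (adjusted p = 0.582), with a 95% interval of -0.40 to 0.15. The difference of the changes, -0.30 ± 0.19, was not called (adjusted p = 0.536). No pair of groups next to each other in the order of means differed by more than its larger SD.

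Srebf1, whose protein SREBP1 governs fatty acid synthesis and uses the same escort, was set beside Srebf2 in TPM. Srebf2 made up 32.4% ± 9.27 (SD, n = 4) of the summed Srebf TPM in females on the normal diet and 20.9% ± 5.58 on the high fat diet. In males it made up 37.2% ± 10.0 and 26.7% ± 6.49. The diet groups overlapped in both sexes. Srebf1 itself was not called with diet, at 0.46 ± 0.31 in females (adjusted p = 0.361) and 0.56 ± 0.31 in males (adjusted p = 0.26).

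Scap (ENSMUSG00000032485.15), the escort, was the steadiest of the regulators. Its libraries ranged from 44.4 to 70.0 CPM over the whole study, and the group means ranged from 53.8 ± 8.22 CPM (SD, n = 4) in males on the high fat diet to 61.6 ± 7.26 CPM in females on the normal diet. The diet change was -0.07 ± 0.12 in females and -0.18 ± 0.12 in males, with 95% intervals of -0.32 to 0.18 and -0.42 to 0.07. In females the sign turned with the scaling, to 0.11 without TMM and 0.17 on log2(TPM + 1). Of its annotated exon bases, 13.2% are shared with 5830462I19Rik on the opposite strand, so with strand use not given in the sources used here, reads of the 2 cannot be told apart there.

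**Figure D3:**
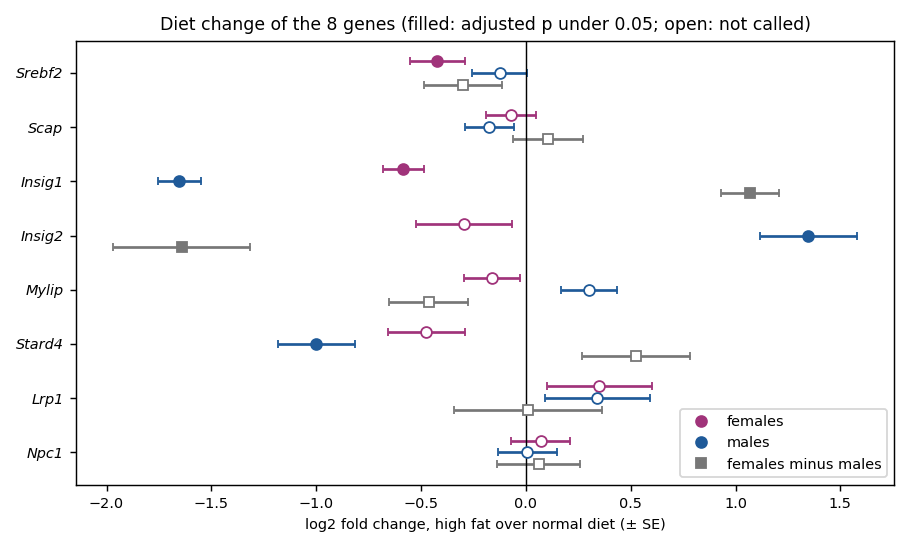
Change with the high fat diet for each gene as a log2 fold change (horizontal axis) with its SE, in females (purple circles), in males (blue circles) and for females minus males (grey squares); filled symbols are called at an adjusted p under 0.05. Insig1 and Insig2 are the genes with a filled grey square, on opposite sides of 0.

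Mylip and Lrp1 act on the uptake of lipoproteins. Mylip (ENSMUSG00000038175.11) encodes a ubiquitin ligase, also called IDOL, that marks lipoprotein receptors for breakdown and is a target of the sterol-sensing LXR receptors. Its RNA was the scarcest of the 8, with 11.0, 11.2, 9.29 and 11.5 CPM in females on the normal diet and 7.33, 8.13, 7.35 and 8.31 CPM in the male counterparts. With the high fat diet females held 7.01, 10.5, 9.54 and 11.6 CPM and males 9.36, 9.91, 10.1 and 9.08 CPM. On the normal diet every female library lay above every male one, and on the high fat diet the sexes overlapped.

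Mylip was the only 1 of the 8 genes called between the sexes on the normal diet, where 15.7% of all genes were called. The female excess was 0.47 ± 0.13 on the log2 scale (adjusted p = 0.0242 by edgeR), and 4 of 16 fits with 1 library removed lost the call, with adjusted p up to 0.0732 (those without female normal diet replicates 1, 2 or 4 or male normal diet replicate 3). The male change with diet was 0.30 ± 0.13 and was not called (adjusted p = 0.151), although the 4 libraries on each diet did not overlap. The female change was -0.16 ± 0.13 (adjusted p = 0.465) and turned to 0.03 without TMM, and the difference between the changes, -0.46 ± 0.19, was not called (adjusted p = 0.303). Of 12 genes listed as LXR receptors and targets, with the other receptor genes Rxra and Nr1h4 among them, 1 was called lower in females. This was Abcg5, which encodes part of a sterol export pump (-0.59 ± 0.13, adjusted p = 0.00682 by edgeR). In males edgeR called 0 of the 12, with 2 at an unadjusted p under 0.05, and DESeq2 called 1. Over all genes edgeR called 11.5% in females, 5.76% lower, and 11.4% in males.

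Lrp1 (ENSMUSG00000040249.16) encodes a large endocytic receptor that takes up lipoprotein remnants and many other ligands, and is made by hepatocytes, macrophages and stellate cells. Females held 175, 103, 251 and 193 CPM on the normal diet and 204, 356, 179 and 179 CPM on the high fat diet. Males held 216, 218, 232 and 177 CPM on the normal diet and 287, 216, 227 and 340 CPM on the high fat diet. All 4 groups overlapped, and the female groups were spread widely, with SDs of 60.7 and 84.9 CPM (n = 4). The diet change was 0.35 ± 0.25 in females (adjusted p = 0.393) and 0.34 ± 0.25 in males (adjusted p = 0.408), with 95% intervals of -0.18 to 0.88 and -0.19 to 0.87. Whether other cells contributed to this was not tested. Of 7 markers of recruited macrophages, 5 were called higher in females and 3 higher and 1 lower in males. Of 8 stellate cell markers, 3 were called higher in females and 0 in males. The recruited macrophage list summed to 22.3 to 31.7 CPM in females on the normal diet and 46.2 to 90.1 CPM on the high fat diet. In males its sums were 31.4 to 79.3 CPM and 37.6 to 55.7 CPM, which overlapped. Of 7 markers of Kupffer cells, the resident macrophages, 1 was called higher in females, Cd5l, and 0 in males. These marker counts stand beside 11.5% of all genes called in females and 11.4% in males. The Kupffer list summed to 248 to 371 CPM and 412 to 604 CPM in females on the normal and high fat diets, and to 229 to 357 CPM and 197 to 418 CPM in males. In the same order the stellate list summed to 407.5 to 429.9 CPM and 385.8 to 438.9 CPM in females. Its male sums were 263.3 to 312.0 CPM and 311.6 to 385.0 CPM, so the diet groups overlapped in both sexes.

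Of 20 other genes of lipoprotein receptor endocytosis, 2 were called with diet in females and 4 in males, beside 11.5% and 11.4% of all genes. These counts depended on the settings: on log2(TPM + 1) 13 were called in females, 12 of them higher, and without male high fat diet replicates 2 and 3 the male count was 2. The whole table moved with these settings too. On log2(TPM + 1) 2308 of 12131 genes were called higher and 274 lower in females. Without the 2 male libraries 1182 of 15524 genes were called in males. Lrp5, a relative of Lrp1 that also serves in Wnt signalling, rose by 0.63 ± 0.14 in females (adjusted p = 0.00883 by edgeR) and by 0.83 ± 0.14 in males (adjusted p = 0.00113). Usp2, a deubiquitinase known to act on Mylip and to follow the clock, fell by 1.56 ± 0.23 in females (adjusted p = 0.000493 by edgeR) and by 1.61 ± 0.23 in males (adjusted p = 0.00036). Vldlr, a receptor of triglyceride-rich particles, rose by 2.12 ± 0.47 in males (adjusted p = 0.0097 by edgeR), from 0.715 ± 0.316 to 3.22 ± 2.27 CPM (SD, n = 4). The 2 much alike libraries carried this: replicates 2 and 3 held 4.89 and 5.46 CPM and replicates 1 and 4 held 1.11 and 1.42 CPM, and with replicates 2 and 3 left out the Vldlr change was 0.75 ± 0.34 and not called (adjusted p = 0.21 by edgeR). In females its change of 1.00 ± 0.37 was not called (adjusted p = 0.0946), at the higher levels of 9.16 ± 1.93 and 18.3 ± 2.70 CPM. The female libraries did not overlap, at 6.28 to 10.4 CPM on the normal diet and 15.3 to 21.5 CPM on the high fat diet. Without male high fat diet replicates 2 and 3, which share the estimate of spread, the female change was 1.00 ± 0.20. It was then called (adjusted p = 0.00489 by edgeR).

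Stard4 and Npc1 move cholesterol inside the cell. Stard4 (ENSMUSG00000024378.10) encodes a soluble carrier that shuttles cholesterol between membranes, among them the endoplasmic reticulum where SCAP senses it, and is a known SREBP2 target. In males it held 131, 117, 138 and 155 CPM on the normal diet and 57.9, 77.2, 73.1 and 62.2 CPM on the high fat diet. In females it held 131, 117, 172 and 173 CPM on the normal diet and 77.6, 124, 143 and 82.8 CPM on the high fat diet. The male groups were well apart, while in females replicates 2 and 3 on the high fat diet lay within the normal diet range.

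Stard4 fell in males by 1.00 ± 0.18 on the log2 scale (adjusted p = 0.00207 by edgeR), or 2.00-fold lower. In females the change of -0.47 ± 0.18 was not called (adjusted p = 0.0972), and neither was the difference between the sexes, 0.53 ± 0.26 (adjusted p = 0.399). The 95% interval of that difference was -0.01 to 1.07. On the high fat diet Stard4 was higher in females than in males by 0.66 ± 0.18 (adjusted p = 0.0172 by edgeR), without overlap, which with Insig1 and Insig2 made 3 called genes of 8 against 20.4% of all genes. The Stard4 call was lost without male high fat diet replicate 4 (0.62, adjusted p = 0.0538 by edgeR). On the normal diet the sexes did not differ beyond their spread (0.13 ± 0.18, adjusted p = 0.658).

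Npc1 (ENSMUSG00000024413.15) encodes the lysosomal membrane protein that passes cholesterol from digested LDL out of the lysosome. Its libraries ranged from 96.0 to 149 CPM, with group means of 128 ± 22.9 and 134 ± 19.5 CPM (SD, n = 4) in females on the normal and high fat diets and 113 ± 12.7 and 114 ± 13.8 CPM in males. All 4 groups overlapped. The diet change was 0.07 ± 0.14 in females and 0.01 ± 0.14 in males, with 95% intervals of -0.22 to 0.36 and -0.29 to 0.30. Npc1 shares 4.52% of its annotated exon bases with Rmc1 and 0.795% with Gm15956, both on the opposite strand. Npc2, the soluble partner of NPC1, was not called with diet, at -0.01 ± 0.13 in females and -0.28 ± 0.13 in males (adjusted p = 0.98 and 0.164).

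Of the other 20 genes of lysosomal and membrane sterol transport, 15% were called with diet in each sex. Over all genes 11.5% were called in females and 11.4% in males. In females 3 were called, all lower: Osbpl1a, Stard5 and Vapa, which serve at contacts between membranes or carry sterols. Their changes were -0.39 ± 0.10, -0.40 ± 0.11 and -0.26 ± 0.07. In males Gramd1c and Tmem241 were called higher, at 0.40 ± 0.11 and 0.49 ± 0.15, and Soat2, which esterifies cholesterol, lower, at -0.43 ± 0.13. These calls were weak: of 16 fits with 1 library left out, 1 lost Osbpl1a, 4 lost Stard5, 7 lost Vapa, 4 lost Gramd1c, 9 lost Tmem241 and 4 lost Soat2, and Tmem241 was also lost without male high fat diet replicates 2 and 3 (adjusted p = 0.237 by edgeR). By median the transport list stood at -0.08 in females and -0.04 in males, beside 0.00 and 0.01 for all genes. Both counts were small and fell to 0 in some settings, such as without female normal diet replicate 4 in females and without male normal diet replicates 1 or 3 in males.

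By level per length, Insig1 was the most abundant of the 8 RNAs in females on the normal diet, with 151 ± 14.6 TPM (SD, n = 4). Insig2 followed with 84.3 ± 17.2, Stard4 with 36.0 ± 9.01, Npc1 with 29.2 ± 6.93, Scap with 17.6 ± 3.19, Lrp1 with 14.0 ± 5.53, Srebf2 with 7.73 ± 2.03 and Mylip with 4.34 ± 0.268 TPM. In males on the high fat diet Insig2 was first with 180 ± 59.9 TPM, Insig1 stood at 42.7 ± 2.41 TPM, and Stard4 at 17.1 ± 2.05 TPM was no longer above Npc1 (27.2 ± 3.03 TPM) or Lrp1 (21.6 ± 5.15 TPM). The transcription factor Srebf2 and the ligase Mylip were thus the scarcest in both groups.

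Over the 16 libraries and without a test, Stard4 followed Insig1 (Pearson r = 0.87 of log2 CPM), Scap (r = 0.76) and Srebf2 (r = 0.73), and Insig2 ran opposite to Insig1 (r = -0.73). These values share the libraries and the group differences given above. The genes most like each member by the same measure were Hmgcs1, Glrx2 and Lss for Srebf2 (r = 0.88, 0.82 and 0.80) and Slc2a8, Gm2a and Gm8355 for Insig1 (r = 0.93, 0.93 and 0.92). For Insig2 they were Clpx, Nudt4 and Slc45a3 (r = 0.90, 0.89 and 0.89), for Stard4 Spc25, Cenpk and Tef (r = 0.91, 0.90 and 0.90), and for Scap Ppp2r5a, Acad11 and Col4a3bp (r = 0.90, 0.86 and 0.84). For Mylip they were Erg, Efcab7 and Mr1 (r = 0.89, 0.86 and 0.85), for Lrp1 Fn1, Gm28042 and Helz2 (r = 0.90, 0.84 and 0.84), and for Npc1 Gm47525, Sept8 and Gpc3 (r = 0.88, 0.83 and 0.82). Hmgcs1 and Lss, beside Srebf2, encode enzymes of cholesterol synthesis.

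The targets of SREBP2 in sterol synthesis were read from a list of 22 enzymes. In females 19 of 22 were called, all lower, with a list median of -1.17, and in males 13 of 22, all lower, with a median of -0.78. The shares called over all genes were 11.5% and 11.4%. Over 27 other settings the counts ran from 13 to 20 in females and from 9 to 17 in males, with none called higher in any. Msmo1, which removes methyl groups from sterol precursors, fell by 1.73 ± 0.21 (SE) in females and by 1.22 ± 0.21 in males on the log2 scale. For the difference between the sexes edgeR called 0 of the 22, with 3 at an unadjusted p under 0.05, and DESeq2 also called 0. Only 0.677% of all genes were called for that difference by edgeR, so a count of 0 does not show that the changes were alike. The list median of the difference was -0.44. Insig1, itself a target of the same factors, went with these enzymes in direction, but its fall was larger in males than in females, while the list median was lower in females.

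The machinery around SCAP and the INSIG proteins changed less by median than the sterol synthesis enzymes. Of 12 genes for SREBP cleavage and for INSIG turnover, 2 were called lower in each sex, with list medians of -0.21 in females and 0.01 in males. These 2 calls were 16.7% of the list, beside 11.5% of all genes called in females and 11.4% in males. In females the count was 0 without normal diet replicate 1 or 2, and in males 1 without high fat diet replicates 2 and 3. Rnf145, a ubiquitin ligase known to act on SCAP, fell in males from 24.4 ± 9.01 to 11.8 ± 0.784 CPM (-1.05 ± 0.20, adjusted p = 0.00293 by edgeR). Rnf139, another ligase of the endoplasmic reticulum, fell in both sexes, by 0.32 ± 0.08 and 0.29 ± 0.08 (adjusted p = 0.0172 and 0.031 by edgeR). The Rnf139 call was lost in 3 of 16 fits with 1 library left out in females and 6 of 16 in males, and in males without replicates 2 and 3 on the high fat diet (adjusted p = 0.0731). It shares 22.3% of its exon bases with Tatdn1. The site proteases Mbtps1 and Mbtps2, which release SREBPs, were not called with diet in either sex. Of 14 genes listed for lipogenesis under SREBP1, 13 were tested. Among these 5 were called lower in females and 2 in males, beside 11.5% and 11.4% of all genes called with diet. One of them in each sex was Tmem97 (-0.83 ± 0.12 and -0.54 ± 0.12), a sterol-regulated gene known to act on NPC1 and not in fatty acid synthesis, and the remaining male call was Me1, which makes NADPH for that synthesis. That Me1 call was lost in 10 of 16 fits with 1 library left out. Without male high fat diet replicates 2 and 3 the male Me1 change was -1.46 (adjusted p = 0.00298 by edgeR). Me1 was also called in females, at -0.89 (adjusted p = 0.0377 by edgeR), a call lost in 6 of 16 fits. Of the 13 genes tested, removing female normal diet replicate 3 left 3 called in females, and removing the 2 much alike male libraries gave 4 in males.

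**Figure D4:**
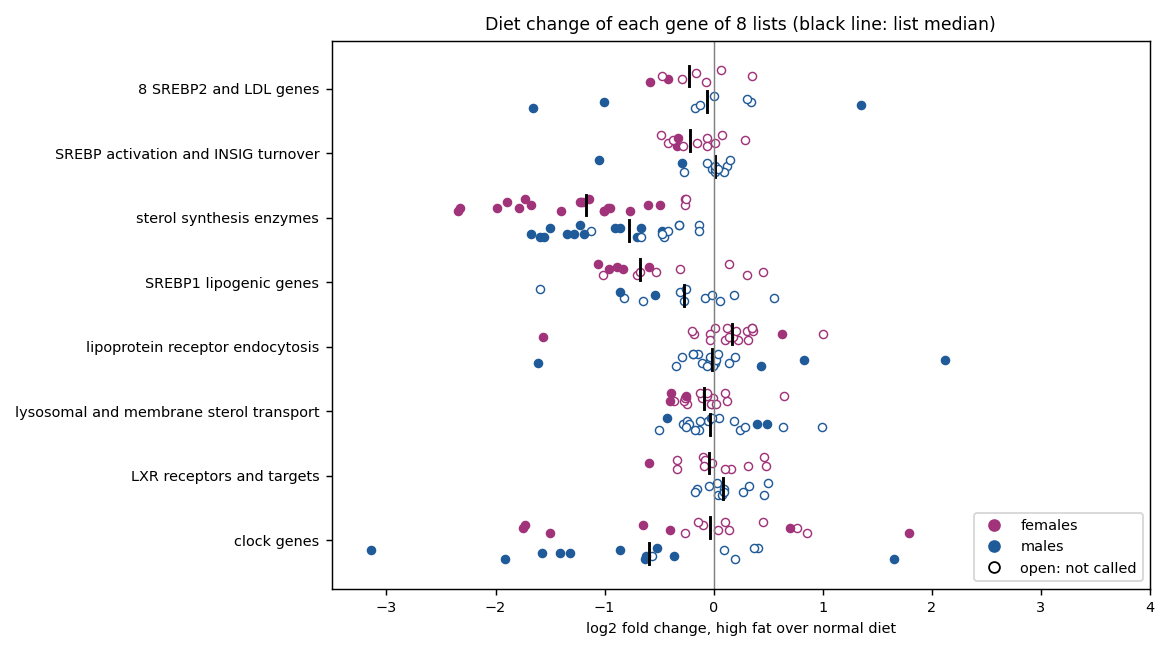
Change with the high fat diet for every tested gene of 8 lists, as a log2 fold change (horizontal axis), in females (purple) and males (blue); filled points are called at an adjusted p under 0.05, and the black line is the list median. The 22 sterol synthesis enzymes lie left of 0 in both sexes, while the 8 genes described here lie on both sides.

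Clock genes also changed with diet, in more than 1 pattern. Nr1d1, which encodes the clock repressor REV-ERB alpha, held 13.3 ± 4.38 CPM (SD, n = 4) in females on the normal diet and 46.3 ± 8.93 CPM on the high fat diet. In males it held 23.6 ± 5.57 and 6.28 ± 0.62 CPM. Its change was 1.79 ± 0.21 in females and -1.91 ± 0.22 in males, and their difference was 3.71 ± 0.30 (adjusted p = 5.54e-06 by edgeR), of opposite sign to that of Insig2. Dbp, an output gene of the clock, went the same way as Nr1d1, with a difference of 2.27 ± 0.28 (adjusted p = 0.000837 by edgeR). Cry1, another clock gene, changed by -1.50 in females and by 0.20, not called, in males. Its difference was -1.70 (adjusted p = 0.0112 by edgeR), of the same sign as that of Insig2. Per1 and Per2 were lower in both sexes, at -1.75 and -0.65 in females and -1.32 and -0.86 in males. Of 16 clock genes tested, 7 were called with diet in females, 2 of them higher, and 11 in males, 1 of them higher. Over all genes 11.5% were called in females and 11.4% in males. For the difference between the sexes 3 of the 16 were called, 2 higher and 1 lower, against 0.677% of all genes. Nr1d1 shares 8.55% of its exon bases with Thra, and Dbp 18.0% with Sphk2.

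**Figure D5:**
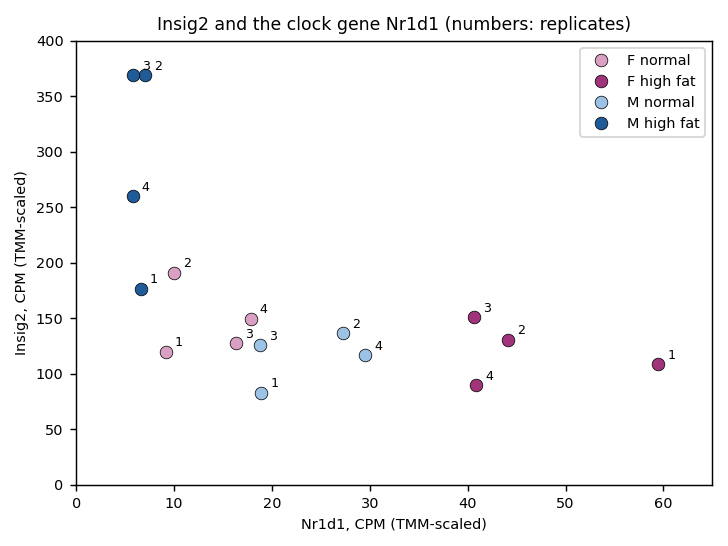
Insig2 (vertical axis) against Nr1d1 (horizontal axis) in each of the 16 libraries, both in CPM on a TMM-scaled library size, coloured by group and numbered by replicate (F, females; M, males). Males on the high fat diet lie at the left, with Nr1d1 between 5.76 and 6.99 CPM and Insig2 between 177 and 369 CPM.

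The plot of Insig2 against Nr1d1 shows this by library. In males on the high fat diet Nr1d1 held 6.61, 6.99, 5.77 and 5.76 CPM in replicates 1 to 4, a narrow range, while Insig2 spanned 177 to 369 CPM in the same libraries. Females on the high fat diet had the highest Nr1d1, from 40.6 to 59.4 CPM, and Insig2 from 89.6 to 151 CPM. Since the hour of collection is not given, a difference in time of day between groups was not tested and neither was its part in the Insig2 values.

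The summed hepatocyte markers were lower on the high fat diet in both sexes. The 7 markers summed to 107047 to 125240 CPM in females on the normal diet and 80238 to 99031 CPM on the high fat diet. The male sums were 96405 to 104436 CPM and 66805 to 81801 CPM in the same order. In each sex 2 of the 7 were called lower and 0 higher, beside 11.5% of all genes called in females and 11.4% in males. These were Hnf4a and Cps1 in females and Hnf4a and Alb in males. Apoa1, Apoc3 and Ttr, none called, changed by 0.06, -0.10 and 0.04 in females and by -0.34, 0.19 and -0.16 in males. Serpina3k, at -0.74 in females and -0.36 in males, Alb in females (-0.33) and Cps1 in males (-0.39) were not called either. The part of the shift in these sums in the falls of Insig1, Stard4 and Srebf2 and in the male rise of Insig2 was not tested. In whole liver fewer cells of a type cannot be told apart from less RNA per cell. The 5 contrasts reuse the same 16 libraries, so their results are not independent of each other.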

How the data were processed

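RNA was sequenced from 16 whole-liver samples, 4 in each of 4 groups of sex and diet, with poly(A) selection, a NEBNext Ultra kit and a NovaSeq instrument, per the labels' protocols. The deposited tables hold RSEM expected counts and TPM, and STAR, RSEM and GRCm39 are named in the submitters' processing notes without versions; the annotation release and strand use are not given in the sources used here. Of the authors' expected counts 4.89% were not whole, because RSEM divides reads that map to several genes. The deposited TPM values divide each gene by its effective length and scale each library to the same sum, and were used for levels between genes and as an alternative scale. No molecular identifiers are named, so counts are reads, not molecules.

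Expected counts were rounded, filtered with filterByExpr, scaled by TMM and fitted with the quasi-likelihood test of edgeR 4.0.16 (R 4.3.3, robust, 1 mean per group, 16 libraries, two-sided), which gave 5 contrasts over 14781 genes. A standard error is |log2 fold change| over the root of the F statistic, and 95% intervals are from the t distribution with the degrees of freedom of the fit. Gene symbols were looked up by unversioned identifier (51487 of 78317 found). Alternatives used DESeq2 1.42.0, limma 3.58.1 on log2(TPM + 1) or log2(TPM + 0.1), other scalings, no filter, a replicate block and fits without single libraries; the same code was tested on simulated counts.

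Genes named are the 8 members, the 3 genes of each list with the smallest p among those called with diet in a sex, 2 for the other contrasts, and the 3 genes most correlated with each member. Others (Mbtps1, Mbtps2, Srebf1, Npc2, marker genes) were named after their values were seen. Some genes that the rule names are not reported here. The members and lists were chosen with earlier results of these data known. Benjamini-Hochberg adjustment ran across the 14781 genes.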

Additional observations from a re-analysis of the deposited data

Results flagged for a closer look

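Female high fat diet replicate 2 had the highest Lrp1 level of the study, 356 CPM, against 179 to 204 CPM in the other 3 libraries of its group. The gap to its nearest neighbour was 0.857 of the range of the group, above the 95% critical value of Dixon's test for 4 libraries. In all 32 groups of 4 were checked, and chance passes that value in about 1 group of 20.

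The change with diet differed between females and males for Insig1, with a difference of 1.07 ± 0.14 on the log2 scale (edgeR quasi-likelihood interaction, adjusted p = 0.0011). Insig1 was lower on the high fat diet in all 4 libraries of both sexes, and more so in males. This difference stayed past the threshold in all 26 alternatives, with adjusted p from 4.27e-13 to 0.00449.

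For Insig2 the difference was -1.64 ± 0.33 (edgeR, adjusted p = 0.0251), with all 4 male libraries higher on the high fat diet than any male library on the normal diet and overlapping female groups. It was not called in 12 of 26 alternatives, whose adjusted p ran from 0.000163 to 0.192.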

How the results depend on the processing

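The count of 3 called members with diet in males and of 3 between the sexes on the high fat diet was within 1.5 times in every alternative run, and Insig1, Insig2 and Stard4 stayed called in males in all 27. Of the 2 members called in females, 1 remained with library totals alone, with no filter, with a fit of only those 2 groups, in log2(TPM + 1) and log2(TPM + 0.1), and with male high fat diet replicates 2 and 3 summed or both left out. On log2(TPM + 1) without a filter limma called 0, with 1 at an unadjusted p under 0.05. Leaving out single libraries gave 1 to 2. For the difference between the sexes 1 of 2 remained with no filter, on the 3 TPM settings and with those libraries summed or both left out, and 1 to 2 with single libraries left out. Between the sexes on the normal diet DESeq2 called 2, limma on log2(TPM + 1) without a filter 0 (2 at an unadjusted p under 0.05), and edgeR 0 to 1 with single libraries left out (0 without female normal diet replicates 1, 2 or 4 or male normal diet replicate 3). The setting without both male libraries was chosen after seeing the data.

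Small changes that were not called turned sign. In females Scap was 0.11 with library totals, 0.17 on log2(TPM + 1), also without a filter, and 0.17 on log2(TPM + 0.1), and Mylip 0.0303, 0.0639 and 0.0719. In males Npc1 was -0.0028 with RLE factors, -0.0053 with the replicate block, -0.0029 with DESeq2, -0.0403 with replicates 2 and 3 summed and -0.13 with both left out. In the last 2 settings the Lrp1 difference between the sexes was -0.0625 and -0.22, and the summed Insig TPM in males fell by 18.0. Srebf2 between the sexes on the high fat diet was 0.015 with RLE factors or no filter, 0.12 with totals, 0.023 with only 2 groups, 0.15 on log2(TPM + 1) with or without a filter, 0.17 on log2(TPM + 0.1), 0.014 with DESeq2, 0.046 summed and 0.099 with both left out; Mylip there was -0.0104 with the block. With single libraries left out, ranges crossed 0 for Npc1 (-0.0037 to 0.16 in females, -0.0489 to 0.0748 in males, -0.0062 to 0.16 for their difference), Scap (-0.12 to 0.0019 in females, -0.0359 to 0.10 between the sexes on the normal diet), the Lrp1 difference (-0.28 to 0.22), and Srebf2 (-0.0535 to 0.0518) and Mylip (-0.0937 to 0.13) on the high fat diet.

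The replicate numbers did not pair the libraries: of 24 same-numbered pairs 1 had a correlation of deviations over 0.1, and 2 of 16 libraries correlated best with their own number. With the replicate block the counts of members called were 2, 3, 2, 1 and 3 in the 5 contrasts, as without it. The genes called over the whole table depended on the scaling in females: 848 higher and 852 lower by TMM, 2318 and 372 with library totals, 2308 and 274 on log2(TPM + 1). The cause of these shifts was not tested. Mylip, at 7.01 to 11.6 CPM, had the lowest counts and hence the widest counting error.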
